A study of Drosophila melanogaster with 56 samples.

Results

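Unnamed Drosophila melanogaster genes whose transcripts were more abundant after 48 h of fasting in each of 4 body parts are described here. The symbol of a gene was taken from the RefSeq gene table, or from the array annotation where that table lacked the gene. A gene counted as unnamed when this symbol was its gene model number, CG followed by digits, whatever its synonyms. There were 5209 such genes, and where the array had several probe sets for one, the brightest over all 56 arrays stood for it. Genes were selected on their difference between times: the 48 h mean had to be at least 5, and at least 0.5 log2 units above the 0 h mean, in every part. The parts were antenna, head, body and the maxillary palp together with the proboscis, called palp from here on. The rule kept 52 genes, which is 0.998% of the unnamed genes and 2.83% of the 1837 unnamed genes that reached a 48 h mean of 5 in all 4 parts. The 48 h minus 0 h differences chose these genes, so they are described and not tested.

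Pools of flies were fasted and sampled at 0 h, which the labels call baseline, at 24 h and at 48 h, and each pool was divided into the body parts. The groups held 4, 5 and 5 arrays at 0, 24 and 48 h in antenna, and 5, 5 and 4 arrays in each of palp, head and body, from 6 pools in all. Not every pool has an array at every time. Strain, sex, age and the number of flies in a pool are not given in the sources used here. Fed flies of the later times are not among the samples, and hunger and elapsed time cannot be told apart. Values are log2 signals from 2.08 to 15.4 with a median of 4.04 on every array, and a gene below 4 on every array of a group is treated as having only an upper bound there. In dissected tissue, fewer cells of a type and less RNA per cell cannot be told apart.

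When food is withdrawn, flies live on glycogen and triglyceride stored in the fat body, the insect organ that combines the roles of liver and adipose tissue. Insulin-like signalling falls, the transcription factor FOXO enters nuclei and switches on genes that curb growth and open the stores, and adipokinetic hormone promotes lipid release. Antenna and maxillary palp carry the olfactory neurons, and the proboscis carries taste neurons, muscle and salivary ducts. Many genes that take part in such responses in the fly are still known by a number, and a number says nothing of what the protein does.

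The dissections matched their labels on defining markers, with some carry-over between tissues. The olfactory markers (4 of 5 listed were found) averaged 11.8 to 12.3 in antenna and 7.32 to 8.05 in palp, against 3.33 to 4.22 in head. The photoreceptor markers trp and inaC averaged 7.81 to 11.4 in antenna and palp and 14.3 to 14.6 in head, while all body arrays at 0 and 24 h lay below 4 for both. Gut markers (6 of 6 found) averaged 9.07 on antenna 0 h replicate 2 and 9.05 on palp 0 h replicate 2, against at most 3.06 and 5.12 on the other 0 h arrays of these parts. In head they ranged from 2.45 to 9.85 at 0 h. Accessory gland markers averaged 11.9 on antenna 24 h replicate 1, and the medians of the antenna groups were at most 2.19. Earlier work on these data set 5 arrays apart for such signals or for widely scattered residuals, namely replicate 2 at 0 h in antenna, palp and head, replicate 1 at 24 h in antenna and replicate 2 at 24 h in palp. Without them the rule kept 48 genes, 45 of them among the 52.

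The difference between 48 h and 0 h had a median over the 52 genes of 0.78 log2 units in antenna, with 1.14 in palp, 0.97 in head and 1.11 in body. Its lowest value was 0.50 in antenna, head and body and 0.52 in palp, and its highest 2.82 in antenna. The highest measured values elsewhere, 7.16 in palp, 6.58 in head and 7.05 in body, were set against 0 h arrays that all lay below 4, and with these set at 4 the same genes differed by at least 5.95, 5.54 and 5.58. A difference of at least 1, which is a doubling, was seen in 15 genes in antenna, with 32 in palp, 24 in head and 31 in body. Antenna held the smallest difference of the 4 parts for 23 genes, and body the largest for 25. Every 48 h array lay above every 0 h array for 38 genes in antenna, with 48 in palp, 42 in head and 45 in body, and in all 4 parts for 28 genes. Among all features that passed the filter on low values the share was 8.81% for antenna, 14.5% for palp, 9.9% for head and 23.2% for body, but the rule used this contrast and nothing is read from the comparison. All 52 genes passed that filter, a log2 signal of at least 4 on at least 4 arrays, in every part.

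Markers of fat body and of hemocytes, the blood cells of the fly, had lower list medians at 48 h than at 0 h in the same parts. The fat body list (5 of 5 found) had a median over arrays of 7.22 in antenna, with 7.92 in palp, 8.42 in head and 6.77 in body at 48 h, against 9.14, 9.42, 9.87 and 8.42 in these parts at 0 h. Its members differed: Lsp2, a storage protein of larval serum, averaged 3.72 in antenna and 4.75 in body at 48 h, against 12.29 and 12.12 at 0 h. The group means of the yolk protein gene Yp1 were 6.95 in antenna and 4.88 in body at 48 h, against 5.54 and 2.19 at 0 h. They were also higher at 48 h in palp and head. The body mean of Yp1 at 0 h was below 4. Over the 48 h arrays the list average reached 9.47 in palp, 10.7 in head and 8.86 in body, well above the medians. Whether single arrays carried the Yp1 means was not tested. In the fat body list 0 of the 5 lay below 4 on every 0 h array in antenna, with 1 in palp, 1 in head and 2 in body. At 48 h these numbers were 1, 1, 0 and 1. The hemocyte list (5 of 5 found) had 6.88 in antenna, with 8.73 in palp, 8.95 in head and 5.30 in body at 48 h, against 8.59, 10.2, 10.6 and 8.66 in these parts at 0 h. Their part in the differences of the 52 genes was not tested.

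**Figure D1:**
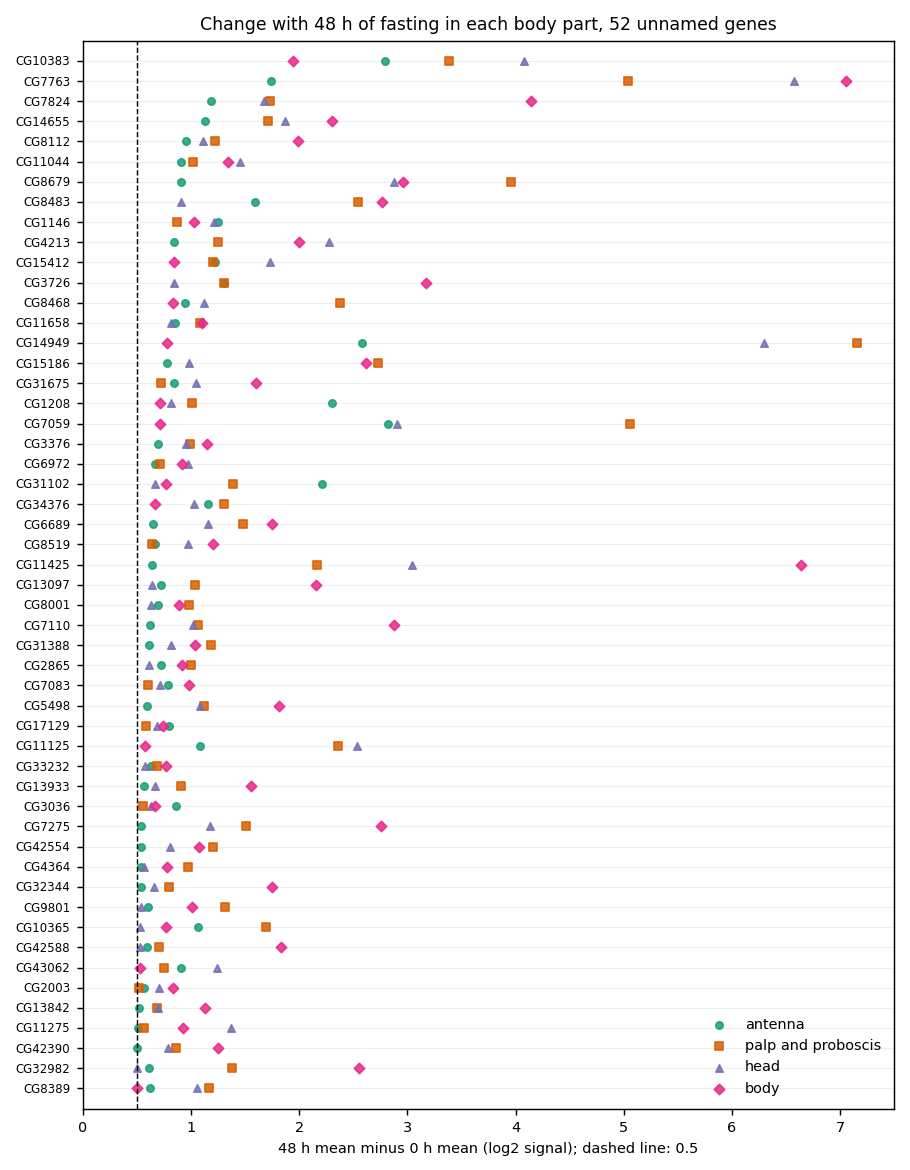
The 48 h mean minus the 0 h mean (log2 signal) of each of the 52 genes in antenna, palp and proboscis, head and body, with genes ordered down the page by their smallest difference. The dashed line at 0.5 is the rule's threshold. CG10383 has the largest smallest-of-4 difference, 1.94 in body, and points beyond 5 belong to CG7763, CG14949, CG7059 and CG11425.

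The 12 genes with the largest smallest-of-4 differences were CG10383, CG7763, CG7824, CG14655, CG8112, CG11044, CG8679, CG8483, CG1146, CG4213, CG15412 and CG3726. Only CG10383, CG7763, CG7824 and CG14655 differed by at least 1 in all 4 parts, and 9 of the 52 genes reached 1 in none. CG10383 was also among the brightest. In head its signals were 9.33, 9.15, 8.80, 9.06 and 9.17 at 0 h, 12.58, 13.13, 12.73, 12.71 and 12.61 at 24 h, and 13.60, 12.90, 13.19 and 13.03 at 48 h. The 0 h arrays stood together and far below the rest, while the 24 h and 48 h arrays overlapped. The 48 h mean of CG10383 was 13.18 ± 0.30 (SD, n = 4) in head, against 9.10 ± 0.19 (SD, n = 5) at 0 h, 16.9 times as high on the linear scale. In body its 0 h arrays spread from 10.73 to 12.52, the widest 0 h spread of this gene, and the 48 h mean of 13.56 stood 1.94 above their mean.

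CG7763 had the largest measured difference in body and head, in both against 0 h arrays below 4. With 0 h arrays under 4 set at 4, the difference of CG11425 in body, 5.95, was larger than that of CG7763, 5.58. The body signals of CG7763 were 2.12, 2.67, 2.45, 2.81 and 2.60 at 0 h, 9.30, 11.09, 9.35, 10.09 and 9.15 at 24 h, and 9.91, 9.57, 11.45 and 7.39 at 48 h. All 0 h arrays were below 4 and no 24 or 48 h array came near them, although the 48 h arrays were widely spread, with replicate 4 the lowest. Because 0 h gave only an upper bound, the 48 h mean was at least 47.8-fold that of 0 h in body and, by the same reckoning, at least 46.5-fold in head. Antenna held little CG7763, with 6.76, 4.99, 6.32, 5.70 and 5.30 at 48 h, against 5.41, 4.04, 3.21 and 3.66 at 0 h. Those antenna groups overlapped through 0 h replicate 1.

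CG14949 differed by 0.78 in body and by a measured 7.16 in palp. With 0 h arrays under 4 set at 4 its palp difference was 5.95, and the range over the parts was then 5.17 for CG14949 and 5.31 for CG11425. In palp its signals were 2.99, 2.58, 2.52, 2.69 and 3.20 at 0 h, 7.18, 9.15, 6.03, 8.74 and 9.03 at 24 h, and 9.88, 9.77, 10.27 and 9.89 at 48 h. The head arrays were 2.65, 2.23, 2.24, 2.30 and 2.08 at 0 h, 4.19, 7.81, 4.81, 7.25 and 7.42 at 24 h, and 8.68, 8.33, 9.48 and 7.89 at 48 h. Both parts had 0 h arrays below 4 and widely scattered 24 h arrays, with replicates 1 and 3 the lowest. The 48 h mean of CG14949 was at least 61.9-fold that of 0 h in palp and at least 24.2-fold in head, and at least 2.41-fold in antenna. In body the transcript was already abundant unfasted, with a 48 h mean of 10.95 ± 0.31 (SD, n = 4), against 10.18 ± 0.18 at 0 h (SD, n = 5).

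CG7059 had its largest difference in palp, 5.06, and its smallest in body, 0.71. Its palp signals were 7.03, 6.80, 6.94, 6.81 and 8.29 at 0 h, 11.58, 12.00, 11.00, 11.40 and 12.10 at 24 h, and 12.86, 12.02, 12.03 and 12.03 at 48 h. Replicate 5 stood above the other 0 h arrays and replicate 1 above the other 48 h arrays, and the 0 h arrays did not overlap the later ones. At 48 h the means of CG7059 were close to one another over the parts, 12.00 in antenna, with 12.23 in palp, 12.21 in head and 12.75 in body, whereas at 0 h they were 9.18 in antenna, with 7.17 in palp, 9.30 in head and 12.04 in body.

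Body had 5 of the 52 genes below 4 on every 0 h array, against 2 in head, and 1 each in antenna and palp. The 48 h mean in body was at least 4.99-fold that of 0 h for CG15186, 3.90-fold for CG7110, 2.64-fold for CG8483 and 2.57-fold for CG8679. The 48 h body arrays of CG8679 were 6.03, 4.09, 7.92 and 3.42, so 1 of them was itself below 4. Its 24 h body arrays, at 6.53, 7.99, 6.05, 7.44 and 6.47, were closer together.

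To show the 52 genes as one, each array was given the median over the genes of its signal minus the 0 h mean of its part. That median lay between -0.13 and 0.11 on the 0 h arrays of all parts. At 24 h it was 0.35 to 0.69 in antenna, 0.67 to 0.97 in palp, 0.50 to 0.99 in head and 0.82 to 1.03 in body. At 48 h it was 0.67 to 0.96 in antenna, 1.00 to 1.37 in palp, 0.84 to 1.14 in head and 1.07 to 1.24 in body. The 24 and 48 h arrays overlapped in antenna and head and did not overlap in palp and body.

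**Figure D2:**
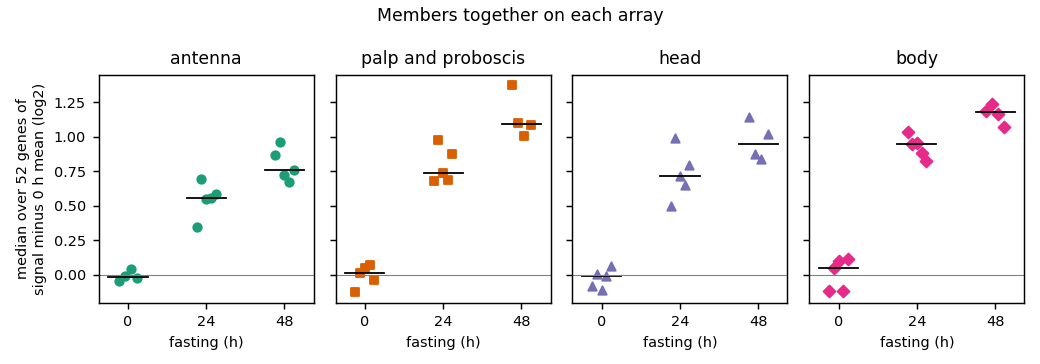
Median over the 52 genes of signal minus the 0 h mean of the same part (log2), 1 point per array, at 0, 24 and 48 h of fasting in each body part. Horizontal bars are the medians over arrays. The 0 h points scatter around 0 and every 24 h array lies at or above 0.35, and no test is attached since the rule used the 0 and 48 h arrays.

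Where the 24 h level lies between the unfasted and the 48 h level is a question that the rule did not settle. By 24 h a median of 67.5% of the 48 h minus 0 h difference was present in antenna, with 72.1% in palp, 76.9% in head and 75.2% in body. The 24 h mean was above the midpoint of the 0 and 48 h means for 38 genes in antenna, with 47 in palp, 47 in head and 43 in body. It was above the midpoint in all 4 parts for 30 genes, in 3 parts for 15 and in at most 2 parts for 7. The 24 h mean reached or passed the 48 h mean for 13 genes in body, 5 in head, 4 in antenna and 0 in palp.

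The departure of the 24 h mean from that midpoint was tested with limma, with Benjamini-Hochberg adjustment over all features of a part at 0.05. From the array numbers alone, with equal spread in all groups, its error has a correlation of 0.0667 in antenna and -0.0667 in palp, head and body with that of the difference that chose the genes. The spread was not equal for every gene: from each gene's own SDs this correlation ran from -0.52 to 0.70 in antenna, -0.68 to 0.71 in palp, -0.56 to 0.65 in head and -0.79 to 0.93 in body. It lay beyond 0.5 in either direction for 4, 11, 4 and 12 of the 52 genes in these parts, and for 0, 3, 1 and 5 of those whose departure passed. For such genes the departure is not independent of the choice. Spread that was unequal between 0 and 48 h is seen below for CG8468 in palp and for CG7763, CG8679 and CG3726 in body. The departure was positive and past the threshold for 4 genes in antenna, with 8 in palp, 4 in head and 14 in body, and for 0.2%, 2.13%, 0.826% and 1.99% of all tested features of these parts. A negative departure passed for 0 genes in every part, against 0.0779% of the features of antenna, 2.05% of palp, 1.1% of head and 1.44% of body. At an unadjusted p under 0.05, 1 gene was negative in each of antenna, palp and head and 3 in body. The median departure of the 52 genes was 0.14 in antenna and 0.26 in each of palp, head and body, and that of all tested features lay between -0.03 and 0.00.

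**Figure D3:**
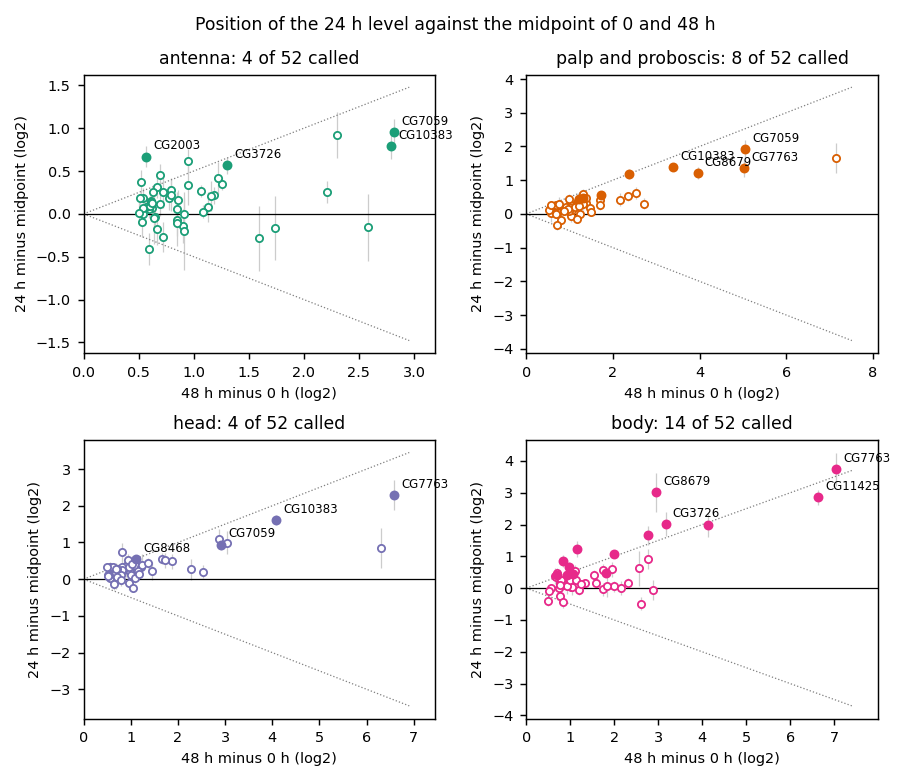
Departure of the 24 h mean from the midpoint of the 0 and 48 h means (log2, vertical axis, with limma standard errors as grey lines) against the 48 h minus 0 h difference (log2, horizontal axis), 1 point per gene and 1 panel per body part. Filled points passed an adjusted p of 0.05, 4 in antenna, 8 in palp and proboscis, 4 in head and 14 in body, all above the midpoint. Dotted lines mark a 24 h mean equal to the 48 h mean (upper) or to the 0 h mean (lower).

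These 30 calls fell on 17 of the 52 genes, and in each of them all 5 arrays at 24 h lay above the midpoint. CG7059 was called in 4 parts, CG10383, CG7763 and CG8468 in 3 parts each, and CG3726, CG7824, CG8112 and CG8679 in 2 parts each. The other 9 genes were called in 1 part, namely CG2003 in antenna, CG9801 in palp, and CG11275, CG11425, CG3376, CG42554, CG5498, CG7083 and CG8483 in body.

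The departures with the lowest adjusted p in palp and head belonged to the same genes. CG10383 at 24 h in palp read 13.50, 13.86, 13.57, 13.65 and 13.93, against 10.66, 10.70, 10.60, 10.68 and 10.51 at 0 h. The gene was thus near its 48 h mean of 14.01 on every 24 h array, and its departure was 1.38 ± 0.09 (SE, adjusted p = 3.48e-06). In head the departure of CG10383 was 1.61 ± 0.13 (adjusted p = 3.90e-05), and in antenna 0.79 ± 0.15 (adjusted p = 0.0496). In body it was 0.59 ± 0.24 and did not pass (adjusted p = 0.230).

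CG8468 read 9.95, 9.75, 9.91, 10.62 and 10.11 in palp at 0 h, 12.29, 12.82, 12.49, 12.09 and 12.48 at 24 h, and 12.47, 12.43, 12.43 and 12.45 at 48 h. The 24 h arrays lay on both sides of the very tight 48 h arrays. The 0 h arrays spread more widely, so the palp departure is not independent of the choice of the gene. The departure of CG8468 was 1.18 ± 0.14 in palp (adjusted p = 0.000849), 0.54 ± 0.09 in head (adjusted p = 0.00942) and 0.86 ± 0.19 in body (adjusted p = 0.0294). In antenna it was 0.62 ± 0.13 with an adjusted p of 0.108. CG7059 departed by 1.91 ± 0.27 in palp (adjusted p = 0.00193), 0.94 ± 0.15 in head (adjusted p = 0.00694) and 0.40 ± 0.10 in body (adjusted p = 0.0431).

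By adjusted p, the departures in body were led by CG11425, listed in RefSeq with the synonym LPP-like. Lipid phosphate phosphatases remove the phosphate from lipid messengers such as phosphatidic acid. CG11425 read 3.12, 3.72, 2.89, 4.12 and 2.85 in body at 0 h, 9.40, 9.92, 9.47, 9.06 and 9.70 at 24 h, and 9.997, 9.51, 10.62 and 9.76 at 48 h. The 0 h arrays were near or below 4 and the 24 and 48 h arrays overlapped, with a departure of 2.85 ± 0.24 (adjusted p = 0.000131). CG8112, with the synonym ACAT, the enzyme that esterifies sterols in mammals, read 9.83, 10.14, 9.60, 9.67 and 9.93 in body at 0 h, 12.14, 12.10, 11.68, 11.70 and 11.83 at 24 h, and 11.93, 11.64, 12.08 and 11.63 at 48 h. Its 24 and 48 h arrays covered the same range, and the departure of CG8112 was 1.06 ± 0.12 (adjusted p = 0.00116).

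CG7763 departed by 3.74 ± 0.52 in body (adjusted p = 0.00359), 2.29 ± 0.40 in head (adjusted p = 0.00964) and 1.37 ± 0.27 in palp (adjusted p = 0.0126). In body and head its size rests on 0 h signals below 4. In body its 48 h arrays spread far more widely than its 0 h arrays, so that departure is not independent of the choice of the gene. CG8679, with the synonym dLEM3, departed by 3.02 ± 0.61 in body (adjusted p = 0.0193), with both limits. In palp CG8679 departed by 1.20 ± 0.18 (adjusted p = 0.00251). LEM domains are known from proteins of the inner nuclear membrane in mammals. CG3376, with the synonym aSMase, the acid sphingomyelinase that cleaves sphingomyelin to ceramide, read 9.77, 9.76, 9.89, 9.76 and 9.56 in body at 24 h and 8.96, 9.35, 9.59 and 8.48 at 48 h. All but 1 of its 48 h arrays were below all of its 24 h arrays, and the departure of CG3376 was 1.23 ± 0.26 (adjusted p = 0.0239).

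The body count changed with single arrays left out and with a covariate of RNA quality in the fit. It was 4 without 24 h replicate 2 and 9 without 24 h replicate 3, and the share of all features in those fits is not given here. The count was 4 when the fit carried the covariate, which was the difference between 3′ and 5′ probe sets of control transcripts. The 3′ minus 5′ difference was 1.71 to 2.03 in body at 0 h, 1.62 to 2.06 at 24 h and 2.00 to 2.48 at 48 h. It was thus partly tied to time, and the covariate cannot separate the 2. Under the covariate 0.536% of all body features passed above the midpoint, against 1.99% without it, so calls were fewer over all features too. The part of RNA quality in the body result was tested in no other way. Gut markers in body averaged 11.5 to 11.9 at 0 h, 9.89 to 10.9 at 24 h and 9.92 to 10.6 at 48 h, with 1 of the 6 below 4 on every array. The members differed: Jon99Fi averaged 11.74, 4.02 and 3.04 at these times, and Jon65Aiii 14.20, 13.31 and 13.37. Mal-A1 stayed between 14.41 and 14.46, Mal-A6 between 13.52 and 13.87, and alphaTry between 14.15 and 14.31. The part of gut RNA in the body departures was not tested. The 3 body genes named first, CG11425, CG8112 and CG7763, passed in every alternative and with each body array left out.

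In head, gut markers averaged 2.45 to 9.85 at 0 h, 7.97 to 9.35 at 24 h and 5.11 to 8.30 at 48 h, with 1, 2 and 2 of the 6 below 4 on every array. Muscle markers (4 of 5 found) averaged 9.52 to 10.2 at 0 h, 10.3 to 10.8 at 24 h and 9.59 to 10.5 at 48 h, with all 4 above 4 on some array. In palp the muscle list averaged 11.1 to 11.4 at 0 h, 11.4 to 11.8 at 24 h and 11.2 to 11.5 at 48 h. The photoreceptor pair averaged 7.86 to 10.5 in palp at 0 h, 9.23 to 11.4 at 24 h and 9.80 to 10.3 at 48 h, with neither below 4 on every array. Gut markers averaged 4.98 to 9.05 in palp at 0 h, 5.12 to 6.54 at 24 h and 5.503 to 6.69 at 48 h, with 2, 1 and 2 of the 6 below 4 on every array. The list medians were highest at 24 h for gut and muscle in head and for muscle and photoreceptor in palp, and highest at 48 h for gut in palp. Within the gut list LysS averaged 2.08, 3.77 and 7.96 in palp at 0, 24 and 48 h, and 2.08 in body at each time. Mal-A1, Mal-A6, Jon65Aiii and alphaTry had lower palp means at 48 h than at 0 h, and Jon99Fi stayed below 4. Those 0 h means include replicate 2, whose list average was 9.05. The part of gut, muscle and photoreceptor tissue in the departures of head and palp was not tested.

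The 3′ minus 5′ difference was wider outside body. It was 2.73 to 5.16 in head at 0 h, 2.72 to 6.66 at 24 h and 3.26 to 7.01 at 48 h. In palp it was 1.96 to 4.48 at 0 h, 3.02 to 5.70 at 24 h and 3.26 to 4.93 at 48 h, and in antenna 2.99 to 3.96, 3.25 to 5.16 and 3.00 to 5.39 at these times. With this difference as a covariate 7 genes passed above the midpoint in head, 12 in palp and 1 in antenna, against 1.38%, 2.55% and 0.122% of the features of these parts.

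With the pool as a block, 13 genes passed above the midpoint in head and 1 below, against 4 and 0 without it. Over all tested head features the share above was 4.47% and that below 5.85% with the block, so calls were more frequent in both directions. CG10383, CG7059 and CG8468 passed in head in every alternative and with each head array left out.

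The antenna calls were the least stable. CG7059 read 9.37, 9.09, 8.78 and 9.48 in antenna at 0 h, 11.55, 11.75, 11.49, 11.20 and 11.71 at 24 h, and 12.41, 12.21, 11.62, 11.77 and 11.99 at 48 h, a departure of 0.95 ± 0.15 (adjusted p = 0.0205). The adjusted p of CG7059 ran from 0.0134 to 0.0840 with 1 antenna array left out, and it no longer passed without 24 h replicate 2, 3 or 6. CG2003 departed by 0.67 ± 0.12 and CG3726 by 0.57 ± 0.10 in antenna (adjusted p = 0.0394 each), and each lost the call in 12 of the 14 fits that left out 1 antenna array. With any 1 antenna array left out, 0 to 3 genes passed, all of them among the 4 except the 1 gene that passed without 24 h replicate 6. The share of all features in those fits is not given here. With the pool as a block 1 gene passed, which was among the 4, against 0.111% of features.

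A few of the genes had little or none of the difference at 24 h in some part, and in those parts their departures did not pass. CG8389 in head read 9.44, 9.31, 9.28, 9.35 and 9.20 at 0 h, 9.54, 9.55, 9.62, 9.65 and 9.70 at 24 h, and 10.24, 10.44, 10.34 and 10.46 at 48 h. The 3 groups did not overlap, and only 28.3% of the difference was present at 24 h. Its departure in head was -0.23 ± 0.07 (adjusted p = 0.102), and it passed with the pool as a block (-0.24, adjusted p = 0.0474) and with array weights (-0.23, adjusted p = 0.0274). In body the 24 h mean of CG8389, 8.93 ± 0.38 (SD, n = 5), was below the 0 h mean of 9.08 ± 0.13 (SD, n = 5). That departure, -0.39 ± 0.15, did not pass (adjusted p = 0.217), and it did without 24 h replicate 4 (-0.55, adjusted p = 0.0287) and in the single fit over all arrays (-0.39, adjusted p = 0.0127). CG42588 had 1.82% of its palp difference at 24 h, with a departure of -0.34 ± 0.13 (adjusted p = 0.184), and CG2003 had -2.24% of its body difference, with a departure of -0.44 ± 0.20 (adjusted p = 0.312).

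**Figure D4:**
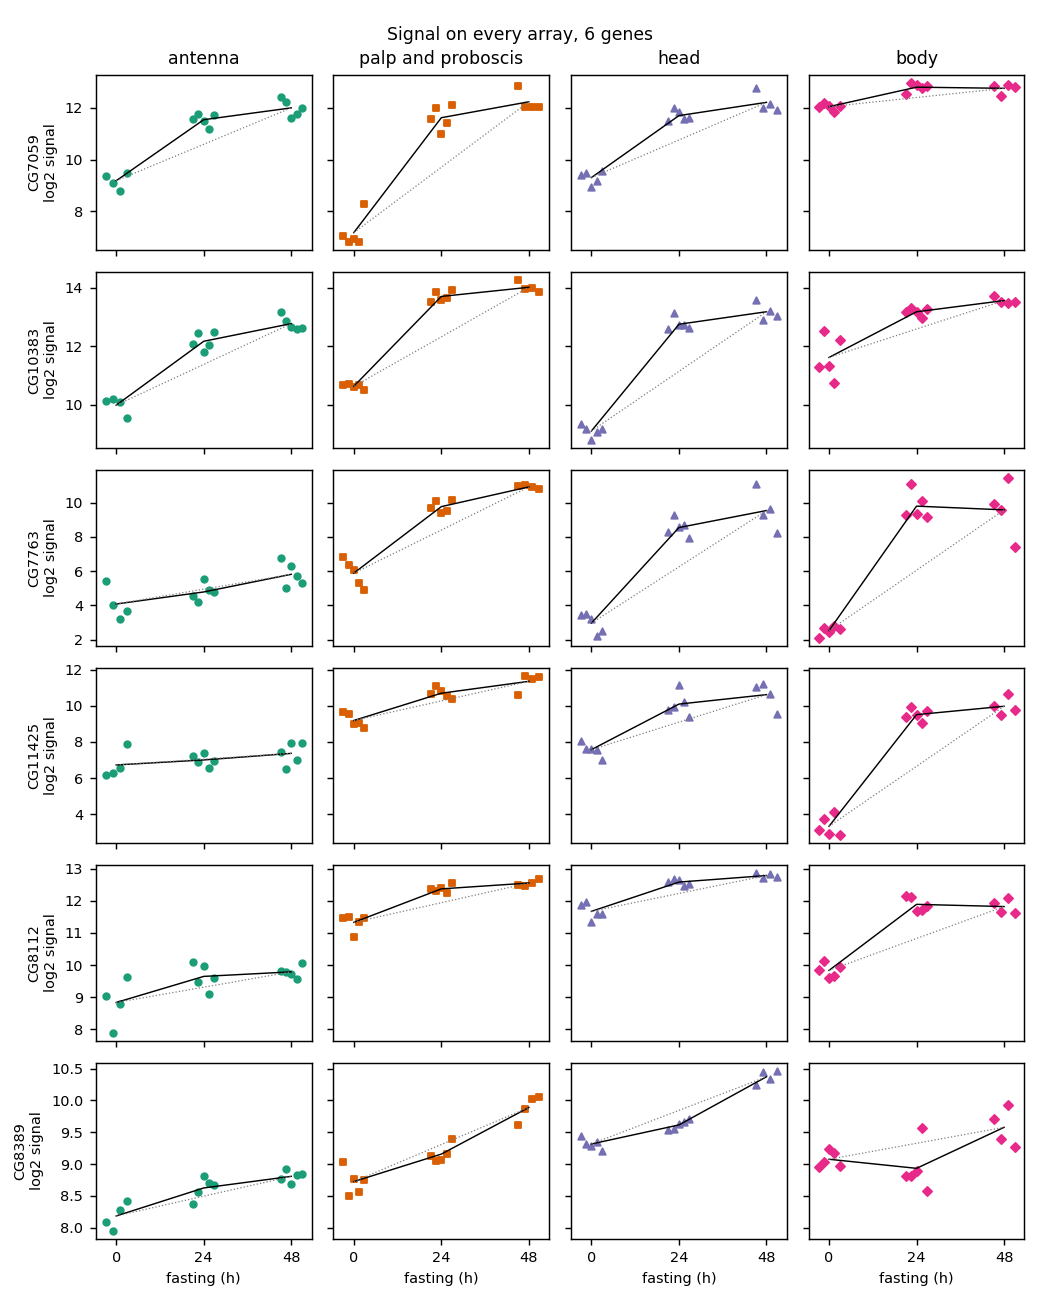
Log2 signal on every array at 0, 24 and 48 h of fasting (horizontal axis) for 6 genes (rows) in the 4 body parts (columns). The solid line joins the group means and the dotted line joins the 0 and 48 h means, so a 24 h mean above the dotted line is above the midpoint. CG10383, CG7059 and CG7763 in head lie above it, and CG8389 in palp, head and body lies below.

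The departures were set beside those of other lists, described by counts and medians. Named genes that met the same numeric rule numbered 99 of 6774, or 1.46%. Of these, 3 passed above the midpoint in antenna, with 23 in palp, 9 in head and 25 in body, with median departures of 0.13 in antenna, with 0.27 in palp, 0.22 in head and 0.30 in body. A negative departure passed for 0 of the 99 in each part, and 1 in antenna, with 1 in palp, 0 in head and 1 in body were negative at an unadjusted p under 0.05. Among the 1785 unnamed genes that had the level but did not meet the rule, 2 passed above the midpoint in antenna, with 36 in palp, 6 in head and 34 in body, and 1, 47, 30 and 26 of them passed below it in those parts. Their medians lay between -0.05 and 0.01.

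The 114 unnamed genes whose 48 h mean was at least 0.5 below the 0 h mean in every part had median departures of -0.17 in antenna and -0.19 in palp, -0.27 in head and -0.02 in body. A negative departure, which for these genes puts the 24 h mean nearer the 48 h mean, passed for 12 of them in palp, 9 in head and 5 in body. None of the 114 passed in antenna by limma, where 26 were negative and 0 positive at an unadjusted p under 0.05. Of all 8986 antenna features 384 were negative and 273 positive at that p.

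Of 15 listed genes of insulin signalling and FOXO response, 11 were found and 10 were tested. A positive departure passed for 2 of them in palp, 2 in head and 4 in body. The lipase bmm, which breaks down stored triglyceride, departed by 0.71 ± 0.10 in palp (adjusted p = 0.00227), 0.85 ± 0.09 in head (adjusted p = 0.000342) and 0.52 ± 0.10 in body (adjusted p = 0.0157). InR, the insulin receptor, passed in palp at 0.79 ± 0.20 (adjusted p = 0.0445), and Sesn, a stress-induced inhibitor of TOR signalling, in head at 0.37 ± 0.09 (adjusted p = 0.0441). Sesn, chico and Atg1 passed with bmm in body. ImpL2, a secreted protein that binds insulin-like peptides, passed below the midpoint in antenna at -1.09 ± 0.19 (adjusted p = 0.0301). The listed insulin and FOXO genes were not chosen on a rise or a fall. Their 48 h minus 0 h differences are not given here. The sign of a departure therefore does not tell whether their 24 h mean lay nearer the 0 h or the 48 h mean. Their departures cannot be read for timing like those of the genes chosen for rising.

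Whether the departure differed between body parts was tested in a single fit of 12 groups over all 56 arrays, with each part set against head. Body differed from head for 4 of the 52 genes, 3 positive and 1 negative, against 0.657% and 0.899% of all tested features. CG3726 departed by 1.76 ± 0.32 more in body than in head (adjusted p = 0.000715), CG11425 by 1.86 ± 0.40 more (adjusted p = 0.00613) and CG7824 by 1.42 ± 0.32 more (adjusted p = 0.00978). CG10383 departed by -1.02 ± 0.24 in body relative to head (adjusted p = 0.0113). A departure grows with the 48 h minus 0 h difference that chose the genes, so these tests cannot separate timing from size. That difference was 3.17 in body and 0.84 in head for CG3726, and 1.94 and 4.08 for CG10383. For CG11425 and CG7824 it was largest in body, at 6.63 and 4.14. Most body 0 h arrays of CG3726 and CG11425 lay below 4. CG3726 in body read 3.53, 4.28, 2.81, 2.87 and 3.06 at 0 h, 7.03, 7.48, 6.55, 6.68 and 6.78 at 24 h, and 7.08, 6.32, 7.52 and 4.99 at 48 h. The head arrays of CG3726 read 8.57, 8.83, 8.51, 8.95 and 9.33 at 0 h, 9.33, 9.75, 9.26, 9.48 and 9.71 at 24 h, and 9.78, 9.54, 9.69 and 9.72 at 48 h. The body groups at 0 and 24 h were far apart, and those in head overlapped through 0 h replicate 5. CG7824 did not pass in a fit over body and head arrays only (adjusted p = 0.152, with a range of 0.00174 to 0.152 over the alternatives), and neither did CG10383 (adjusted p = 0.113, with a range of 0.00257 to 0.113).

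Antenna differed from head for 1 of the 52 genes, CG7763, at -2.46 ± 0.60 (adjusted p = 0.0438), against 0.225% of features in each direction. Its 48 h minus 0 h difference was 1.74 in antenna and a measured 6.58 in head, so here too timing and size are not separated. The call of CG7763 was lost in 27 of 56 fits with 1 array left out, where the adjusted p ran from 0.0147 to 0.133, and without the 5 arrays set apart above (adjusted p = 0.0502). Palp differed from head for 0 of the 52 genes by limma, against 0.138% of features positive and 0.251% negative. At an unadjusted p under 0.05, 3 genes were positive and 0 negative there, against 226 and 308 of all 11565 features. With the pool as a block 1 gene passed, against 0.19% of features positive and 0.346% negative.

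The level of each gene was also compared between parts among the 20 arrays at 24 h, which the rule's thresholds did not use. These arrays entered the choice between probe sets of the 5 genes that had several, and the same probe set was the brightest for all 5 without them. Palp was higher than head for 32 of the 52 genes and lower for 6, against 30.4% and 25.8% of all 11178 tested features. Antenna was higher than head for 6 and lower for 23, against 27.9% and 25.9%. Body was higher than head for 22 and lower for 23, against 33% and 53.7%. Of the 1785 unnamed genes that had the level but did not meet the rule, 42.3% were higher and 23.5% lower in palp. Their shares were 38.7% and 24.5% in antenna, and 29.5% and 53.8% in body. Of the 114 unnamed genes that fell in every part, 64.9% were higher and 5.26% lower in palp. Their shares were 39.5% and 38.6% in antenna, and 43% and 29.8% in body. The median difference of the 52 genes from head was 0.70 in palp, -0.43 in antenna and -0.20 in body, where that of all features was 0.08 in palp, 0.01 in antenna and -0.51 in body. With cyclic loess scaling, which moved the median of all features in body to 0.32, body was higher for 31 genes and lower for 15, palp was higher for 30 and lower for 7, and antenna was higher for 4 and lower for 28. The shares of all features under that scaling were 49.8% higher and 36.3% lower in body, 25.8% and 30.4% in palp, and 22.1% and 33.8% in antenna.

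**Figure D5:**
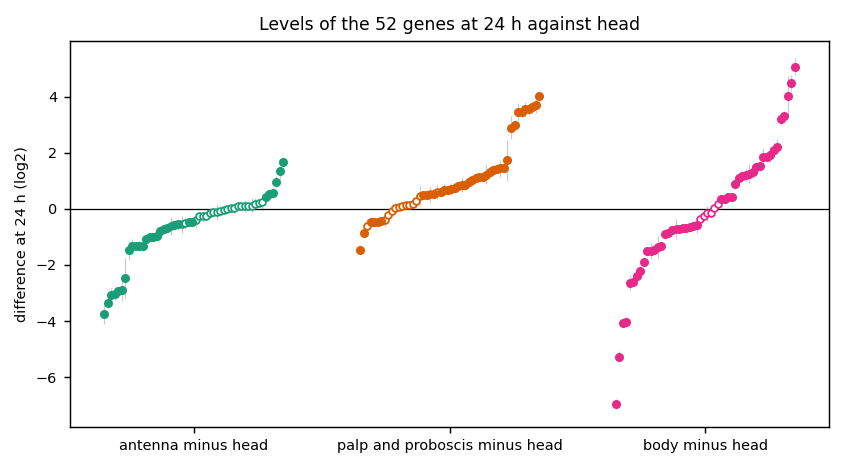
Difference from head at 24 h (log2, limma standard errors as grey lines) for antenna, palp and proboscis, and body, with the 52 genes sorted from lowest to highest within each comparison. Filled points passed an adjusted p of 0.05, 6 higher and 23 lower in antenna, 32 higher and 6 lower in palp and proboscis, and 22 higher and 23 lower in body.

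Several of the genes were far higher in palp than in head. At 24 h the mean of CG31675 was 12.98 ± 0.05 in palp, against 8.96 ± 0.26 in head (SD, n = 5 each), a difference of 4.02 ± 0.16 (SE, adjusted p = 6.66e-14). CG4213 was 3.69 ± 0.28 higher in palp than in head (adjusted p = 1.33e-09) and CG6972 was 3.63 ± 0.22 higher (adjusted p = 3.40e-11). CG31388 was lower in palp by -1.45 ± 0.17 (adjusted p = 6.44e-07), and CG8468 by -0.85 ± 0.15 (adjusted p = 7.96e-05). CG8001 was lower by -0.47 ± 0.15 (adjusted p = 0.0115).

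In body the same genes spread over a wider range. CG43062 averaged 10.35 ± 0.35 in body, against 5.27 ± 0.57 in head at 24 h (SD, n = 5 each), a difference of 5.07 ± 0.30 (adjusted p = 5.00e-12). CG4213 was 4.49 ± 0.28 higher in body (adjusted p = 1.76e-11) and CG14949 was 4.01 ± 0.72 higher (adjusted p = 3.91e-05). CG31388 averaged 4.84 ± 0.38 in body, against 11.81 ± 0.27 in head (SD, n = 5 each), a difference of -6.97 ± 0.17 (adjusted p = 8.07e-18). CG15186 was lower in body by -5.26 ± 0.18 (adjusted p = 1.51e-15) and CG7110 by -4.08 ± 0.13 (adjusted p = 2.53e-16).

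In antenna only 6 genes were higher than in head. CG7110 was 1.68 ± 0.13 higher in antenna (adjusted p = 1.03e-09), CG17129 was 1.33 ± 0.26 higher (adjusted p = 0.000229) and CG11125 was 0.97 ± 0.21 higher (adjusted p = 0.000684). CG7763 was lower in antenna by -3.76 ± 0.34 (adjusted p = 1.55e-08), CG8468 by -3.37 ± 0.15 (adjusted p = 3.61e-13) and CG11425 by -3.09 ± 0.26 (adjusted p = 5.18e-09). CG7110 thus stood above head in antenna and palp and below head in body. Of the 99 named genes that met the same numeric rule, 15 were higher and 53 lower in antenna than in head, 38 higher and 17 lower in palp, and 14 higher and 72 lower in body.

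A synonym that names a function was listed in RefSeq for 9 of the 52 genes and for 43 none was. These 9 genes were described after their values were seen, and no theme among them was tested. The 3 lipid enzymes were CG8112, CG11425 and CG3376, described above. All 3 passed above the midpoint in body, as did 14 of the 52 genes in all and 1.99% of features. With the 3′ minus 5′ covariate 4 of the 52 passed there. The 3 with names of ubiquitin ligase substrate adaptors, which in mammals pick proteins for ubiquitination, were CG11044 (FBXO10), CG11658 (Fbxo25) and CG13933 (dmASBa), and no departure of theirs passed, the lowest adjusted p being 0.146 for CG11658 in body. The 48 h minus 0 h difference of CG11044 was 0.91 in antenna, with 1.02 in palp, 1.45 in head and 1.34 in body. That of CG11658 lay between 0.82 and 1.10, and that of CG13933 between 0.56 in antenna and 1.55 in body.

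CG10365 carries the synonym Chac1, in mammals an enzyme that degrades glutathione. In palp CG10365 read 10.66, 10.77, 11.01, 10.78 and 10.51 at 0 h, 11.65, 12.44, 11.75, 11.73 and 11.70 at 24 h, and 12.70, 12.31, 12.34 and 12.41 at 48 h. The 0 h arrays were below all others, and replicate 2 at 24 h lay among the 48 h arrays. CG10365 was 1.86 ± 0.14 higher in body than in head at 24 h (adjusted p = 1.73e-10) and 1.02 ± 0.14 higher in palp (adjusted p = 2.94e-06). CG32344, with the synonym DmRH20 of an RNA helicase, was lower in body than in head at 24 h by -2.39 ± 0.22 (adjusted p = 3.84e-09). At 24 h CG32344 had 31.6% of its 48 h minus 0 h difference in antenna, 26.9% in palp and 28.2% in head, and no departure of it passed.

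For 47 of the genes the array held 1 probe set that was annotated to that gene alone, and for 5 it held several. Of the 8 other probe sets of those 5 genes, 1, of CG32982, also met the 0.5 difference in all 4 parts, with 0.72 in antenna, with 1.28 in palp, 0.62 in head and 1.74 in body. Those of CG33232 and CG42588, and 1 more of CG32982, averaged 2.11 to 2.27 over all arrays. They lay far below 4 and say little about a difference. The other probe set of CG34376, with a mean of 7.29 over all arrays, differed by 0.14 in antenna and 0.25 in palp, 0.10 in head and -0.23 in body, so the probe sets of this gene disagree. Those of CG13842 disagree too: its other probe set differed by 0.04 in antenna and 1.55 in palp, -0.02 in head and 0.00 in body, and its 48 h mean of 9.27 in antenna was above the 6.77 of the probe set used. CG6972 and CG13842 were the only members next to each other on the genome in RefSeq's gene order. At 24 h the probe set used for CG13842 was 3.54 ± 0.26 higher in palp than in head (adjusted p = 5.59e-10), beside the 3.63 of CG6972.

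The threshold was crossed by small margins at its edge. Just inside it, CG8389 differed by 0.501 in body, CG32982 by 0.502 in head and CG42390 by 0.505 in antenna. Just outside it, CG16758 differed by 0.499 in head, CG14132 by 0.495 in head and CG14022 by 0.488 in body. With 1 array left out, the rule kept 47 to 55 genes, and 29 of the 52 were kept whichever array was left out. In 5 of the genes a 48 h mean lay under 5.5 in some part.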

How the data were processed

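Transcript levels were measured on 56 one-colour Affymetrix Drosophila arrays, covering 4 body parts of 6 fly pools at 0, 24 and 48 h of fasting. Per the labels' protocols, total RNA was extracted with RNeasy and amplified with NuGEN Ovation. The deposited values are log2 signals that the authors made with GCRMA, per the submitters' processing notes; its version and the genome build are not given in the sources used here. Scaling across body parts is part of these values, so a change in total RNA cannot be read from them.

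Of 18952 probe sets, 183 controls were left out; 4720 had no gene and 402 several. A gene with several probe sets was represented by the brightest, which left 11983 genes and 17105 features. RefSeq's gene table (13544 of 13647 IDs of probe sets with 1 gene were found) changed no symbol, and was used for names and gene order only. It held 51 of the 52 genes, all 51 as protein coding. No protein or promoter sequences were used here, so a planned comparison of proteins was not made.

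Tests used limma 3.58.1 in R 4.3.3 on features with a log2 signal of at least 4 on at least 4 arrays of the fit, two-sided, with Benjamini-Hochberg adjustment over all tested features. Departures from the midpoint were fitted per part with 3 group means, levels at 24 h over 20 arrays, and differences of departures over 12 group means. The tests were tried on simulated data. Fold bounds set the lower group at 4. Plots came from matplotlib 3.10.9 under Python 3.11.15.

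The design text says that each pool was sampled at each time, so pool numbers pair arrays. Among these arrays the pairing is incomplete. The last-numbered pool has 0 h arrays only, and others lack the 0 h array or, in some parts, the 48 h array. The mean residual correlation was 0.12 between antenna arrays of 1 pool and -0.0933 between those of different pools. It was 0.127 and -0.0988 for palp, 0.198 and -0.112 for head, and 0.106 and -0.101 for body. For the 24 h arrays of all parts together it was 0.106 and -0.0507. The main fits had no block. The pools may hold different flies at each time, and p-values measure the spread between these arrays. One 48 h array of body has unlike replicate numbers in its labels, and its title was followed.

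The members, lists and settings were chosen with earlier results of these data known. Genes were named by a rule: the 12 largest smallest-of-4 differences, up to 3 called genes per comparison and direction (without regard to direction for differences of departures), the 3 nearest the threshold on each side, and neighbours on the genome. Genes called in several parts, genes with a synonym that names a function, the fourth gene called for body against head, CG8389, CG42588, CG14949 and the second probe sets were described after their values were seen. Alternatives were a weighted midpoint, no filter on dim probe sets, the pool as a block, a single fit, array weights, leaving out 5 arrays or each array in turn, and, added after seeing the data, cyclic loess scaling, a 3′ minus 5′ covariate and a fit over 2 parts.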

Additional observations from a re-analysis of the deposited data

Results flagged for a closer look

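Among 204 groups of arrays of the genes named by rule, 15 held an array far from the others of its group, and chance alone flags about 1 group in 20. In antenna these were CG10383 at 0 h, where replicate 4 read 9.53 and the others 10.10 to 10.18, CG8679 at 24 h, where replicate 1 read 5.23 and the others 6.18 to 6.56, and CG8483 at 48 h, where replicate 2 read 6.74 and the others 4.63 to 5.08. In palp at 0 h, CG14655 read 9.95 on replicate 5 against 10.50 to 10.69, CG8112 read 10.87 on replicate 3 against 11.34 to 11.51, CG7059 read 8.29 on replicate 5 against 6.80 to 7.03, and CG2003 read 9.17 on replicate 4 against 9.38 to 9.46. In palp at 48 h, replicate 1 stood apart for CG8679 (9.39 against 8.64 to 8.73), CG7059 (12.86 against 12.02 to 12.03) and CG11425 (10.62 against 11.50 to 11.67). In head, CG4213 read 5.29 at 0 h on replicate 4 against 4.30 to 4.55. At 24 h replicate 2 stood above the other head arrays for CG10383 (13.13 against 12.58 to 12.73) and CG8679 (8.64 against 7.25 to 7.63), and at 48 h replicate 2 read 13.38 for CG8468 against 13.27 on the others. In body at 24 h, CG15412 read 8.61 on replicate 4 against 9.77 to 10.24.

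Departures from the midpoint that differed between parts by limma's test of the difference were those of CG7763, lower in antenna than in head by -2.46, and of CG3726, CG11425 and CG7824, higher in body than in head by 1.76, 1.86 and 1.42. That of CG10383 was lower in body than in head, by -1.02. Departures grow with the 48 h minus 0 h difference of a part, so timing and size are not separated here.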

How the results depend on the processing

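No difference of a named gene changed sign under the alternatives run, while the balance of genes higher and lower in body than in head at 24 h, 22 and 23, became 31 and 15 with cyclic loess scaling. Over all features the shares went from 33% and 53.7% to 49.8% and 36.3%. In all, 26 of 135 counts moved by over 1.5 times; with 1 array left out it was 47 of 436 counts. The cause was not tested. Genes above the midpoint in antenna numbered 4, against 0 with 0 and 48 h arrays weighted by number, 0 with no filter on dim probe sets, and 1 each with the pool as a replicate block, without the 5 set-aside arrays and with the 3′ minus 5′ covariate. Of all antenna features 0.2% passed above in the main fit, and 0.0668%, 0.0409%, 0.111%, 0.179% and 0.122% under these alternatives in turn. In palp 8 genes passed above the midpoint, against 14 with the weighted midpoint and 15 with array weights, with feature shares of 2.13%, 2.7% and 5.47%. In head there were 4, against 8 with the weighted midpoint, 13 with the pool block, 7 in the single fit, 12 with array weights and 7 with the covariate. The feature shares were 0.826% in the main fit and 1.17%, 4.47%, 1.76%, 2.53% and 1.38% in turn. Below the midpoint in head there were 0 genes, against 1 with the pool block and 1 with array weights. The feature shares there were 1.1%, 5.85% and 3.32%. In body 14 genes passed above the midpoint, against 7 with no filter and 4 with the covariate, with feature shares of 1.99%, 0.59% and 0.536%. Below it in body there were 0, against 1 in the single fit, with shares of 1.44% and 4.03%. Antenna and head differed for 1 gene, against 2 with the weighted midpoint, 4 with array weights, and 0 with no filter, without the set-aside arrays and in the fit over the 2 parts. The feature shares were 0.225% positive and 0.225% negative in the main fit. They were 0.259% and 0.294% with the weighted midpoint, and 1.13% and 1.3% with array weights. With no filter they were 0.105% and 0.129%, without the set-aside arrays 0.329% and 0.857%, and over the 2 parts 0.208% and 0.166%. Palp and head differed for 0, against 1 each with the weighted midpoint, the pool block and array weights. The positive feature shares were 0.138% in the main fit and 0.19%, 0.19% and 0.761% in turn. The negative shares were 0.251%, and then 0.311%, 0.346% and 0.674%. The pool block changed no other count by over 1.5 times.

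With each array left out in turn, genes above the midpoint numbered 0 to 3 in antenna, 6 to 12 in palp, 4 to 7 in head (7 without 48 h replicate 1) and 4 to 14 in body, and genes below it 0 to 1 in body and 0 in the other parts. Departures differed from head for 0 to 1 genes in antenna, 0 to 1 in palp and 4 to 5 in body. At 24 h, 6 to 7 genes were higher and 22 to 25 lower in antenna than in head, 31 to 32 higher and 6 to 7 lower in palp, and 20 to 22 higher and 22 to 25 lower in body. Shares of all features in these fits are not given, so changes over the whole array and in these genes cannot be told apart. The rule kept 47 to 55 genes. It kept 48 with medians over arrays and 47 when every probe set of a gene had to meet it. Precision is limited by 4 or 5 arrays a group and, for genes near the floor in body at 0 h, by the array's background.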
